A study of Homo sapiens with 3 samples.

Results

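The 10 genes described here encode the protein cores of proteoglycans, proteins that carry long sulfated sugar chains. They are DCN (decorin), LUM (lumican), BGN (biglycan) and PRELP of the small leucine-rich family, VCAN (versican), HSPG2 (perlecan), AGRN (agrin) and the syndecans SDC1, SDC2 and SDC4, and they were 10 of 16149 genes listed in any library. The members were chosen by name, with earlier results of the same RPKM values known, among them the higher levels of DCN and LUM in both subclones. Their levels are therefore given as a description, with no test.

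RNA-seq profiles were compared between human hepatocellular carcinoma lines that differ in the organs to which they spread, with 1 library a line and 3 libraries in all. The parent was HCCLM3, a liver cancer line that the labels give a low metastasis ability, whereas the study's text introduces its red fluorescent derivative as a line of high metastatic potential. Subclone 1 was labelled as metastasising more, and to the lung, and subclone 2 as spreading to lung and celiac lymph node. All 3 were grown in DMEM, with no treatment stated, and derive from HCCLM3. The subclones were single-cell clones grown from metastases in nude mice, and each is therefore 1 clone, for which the labels give no clone name. With 1 library a line, a difference between libraries has no replicate check, and clone-to-clone spread cannot be told apart from a difference in organ preference.

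The deposited values were RPKM, reads scaled to gene length and sequencing depth. The reads behind each value were recovered from the RPKM, and the library totals were 4488825 (parent), 4609696 (subclone 1) and 4725150 reads (subclone 2). Intervals below are exact 95% intervals from these reads and cover counting error only. Values of 3 libraries given together below are those of the parent, subclone 1 and subclone 2, in that order. Some hepatocyte and epithelial markers were present in every library, with the epithelial keratin KRT8 at 1614, 1641 and 1742 RPKM and HNF4A at 11.7, 11.9 and 16.0 RPKM. Other hepatocyte markers were near 0, with APOA1 on 1, 3 and 2 reads and TTR on 0, 0 and 2 reads. GPC3, a surface proteoglycan used as a marker of liver cancer, was listed in none of the 3, and a gene that a library does not list is taken as 0 here.

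Proteoglycans of the small leucine-rich family bind fibrillar collagens and space their fibrils, and decorin also binds growth factors and their receptors. Versican forms hydrated aggregates with hyaluronan in loose or provisional matrix, perlecan and agrin are heparan sulfate proteoglycans of basement membranes, and syndecans hold heparan sulfate chains at the cell surface, where the chains act as co-receptors. In liver, decorin and lumican are mostly made by stellate cells and fibroblasts, while syndecans are abundant on hepatocytes.

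DCN and LUM were higher in both subclones than in the parent, and VCAN was lower in both. HSPG2 was also higher, by close to 2-fold, and the differences of SDC1, SDC4 and AGRN were smaller. BGN, PRELP and SDC2 held at most 7 reads in any library. Summed over the 10 genes, the levels were 124.6, 159.8 and 171.5 RPKM.

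Decorin, the collagen-binding proteoglycan that carries 1 dermatan or chondroitin sulfate chain, lies in GENCODE 29 at chr12:91140484-91183123 on the minus strand of GRCh38. DCN stood at 0.773 RPKM (0.334 to 1.52) in the parent, 4.42 RPKM (3.25 to 5.88) in subclone 1 and 2.75 RPKM (1.86 to 3.93) in subclone 2, from 8, 47 and 30 reads. The intervals of both subclones lay above that of the parent. The level was 5.72-fold higher in subclone 1 (2.68 to 14.0) and 3.56-fold higher in subclone 2 (1.60 to 8.99), a log2 ratio of 2.37 and 1.71 after adding 0.1 RPKM to each value. Between the subclones the ratio of subclone 2 to subclone 1 was 0.623 (0.380 to 1.005), an interval that holds 1. Even at its highest, DCN remained far below LUM in level.

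Lumican, its keratan sulfate relative, lies beside decorin at chr12:91102629-91111831, also on the minus strand. LUM was at 10.1 RPKM (7.45 to 13.4) in the parent, 24.0 RPKM (19.8 to 28.8) in subclone 1 and 21.0 RPKM (17.2 to 25.4) in subclone 2. Again the parent was the lowest library and its interval overlapped neither subclone. The fold over the parent was 2.37 (1.68 to 3.39) in subclone 1 and 2.08 (1.46 to 2.99) in subclone 2, and the subclones differed by a ratio of 0.876 (0.666 to 1.15). These intervals rest on 48, 117 and 105 reads, the fewest that give whole reads in all 3 libraries with a length of 1058 bases. GENCODE 29 gives 3008 bases for the longest LUM transcript, and with 3 times the reads and length the fold intervals narrow to 1.95 to 2.90 and 1.70 to 2.55.

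DCN and LUM are the only genes of their neighbourhood that were listed. RefSeq places CCER1, EPYC and KERA on the LUM side of the pair, the last 2 of them also small leucine-rich proteoglycans, and 3 noncoding RNA genes on the DCN side. All 6 were at 0 in the 3 libraries, although the annotation behind the RPKM was not given in the sources used here and may not contain every RefSeq gene.

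The other small leucine-rich members were near the limit of detection. BGN, which like decorin carries dermatan or chondroitin sulfate, held 4, 3 and 1 reads, or 0.362, 0.264 and 0.0859 RPKM. PRELP, a heparin-binding member found around basement membranes, held 6, 4 and 7 reads, or 0.229, 0.149 and 0.254 RPKM. Fold intervals of both genes over the parent held 1, from 0.107 to 4.32 for BGN and from 0.135 to 2.74 for PRELP in subclone 1, so a change was not detectable at this depth.

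**Figure D1:**
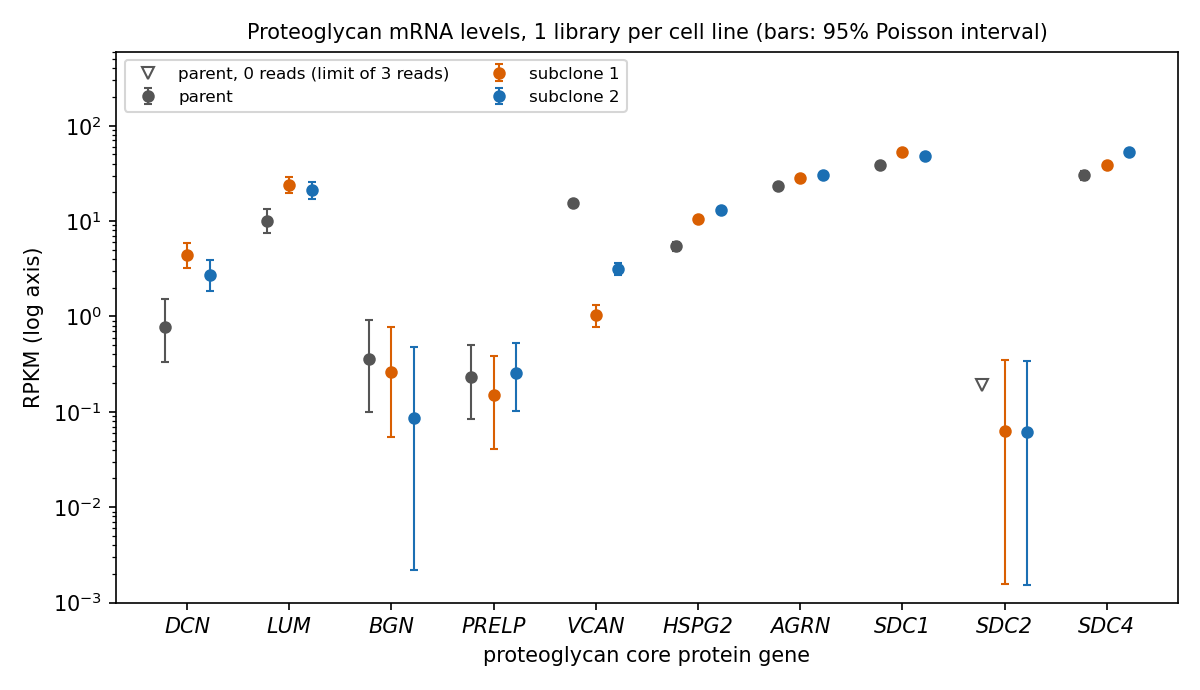
Levels of the 10 proteoglycan genes in the 3 libraries, in RPKM on a log axis, with exact 95% counting intervals as bars. DCN and LUM were lowest in the parent (0.773 and 10.1 RPKM), and VCAN was highest there (15.5 RPKM).

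Versican, a large chondroitin sulfate proteoglycan that binds hyaluronan, lies at chr5:83471465-83582303 on the plus strand in GENCODE 29. VCAN was at 15.5 RPKM (14.4 to 16.5) in the parent, 1.03 RPKM (0.785 to 1.33) in subclone 1 and 3.17 RPKM (2.73 to 3.66) in subclone 2. With 862, 59 and 186 reads, no interval overlapped another. The level was 15.0-fold lower in subclone 1 (11.5 to 19.9) and 4.88-fold lower in subclone 2 (4.16 to 5.75), and subclone 2 was 3.08-fold above subclone 1 (2.28 to 4.20). As a share of the summed RPKM of all members, VCAN made up 12.4%, 0.645% and 1.85%. None of the 6 RefSeq genes nearest to VCAN was listed in any library, among them VCAN-AS1 and HAPLN1, which encodes a link protein of hyaluronan aggregates.

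The 250 bases before the RefSeq start of VCAN are shown because its level differed most, with those of HSPG2 and SDC4 beside their values. All are from GRCh38.p14, 5' to 3' on the strand of the gene. Capitals mark matches on either strand to the TATA box (TATAA), the CCAAT box, the GC box, spelled GGGCGG, or the E box, whose letters are CACGTG, and GC boxes can overlap one another. The VCAN window is chr5:83471494-83471743 on the plus strand.
VCAN: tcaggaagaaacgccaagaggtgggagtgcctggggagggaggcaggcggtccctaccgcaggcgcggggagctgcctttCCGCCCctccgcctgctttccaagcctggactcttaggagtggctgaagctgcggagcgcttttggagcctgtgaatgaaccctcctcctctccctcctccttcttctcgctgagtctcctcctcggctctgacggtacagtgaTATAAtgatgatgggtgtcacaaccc
This window held 1 TATA box, 26 to 22 bases before the RefSeq start, and 1 GC box on the minus strand. GENCODE starts VCAN earlier, at chr5:83471465, so in that annotation the whole window lies within the gene. The window and its matches are therefore upstream by the RefSeq start only. Of the 35116 RefSeq windows of this length, 18.9% held a TATA box, 32.0% a CCAAT box, 42.6% a GC box and 6.34% an E box. Of 7 windows from 6 members, 2 held a TATA box, 1 a CCAAT box, 6 a GC box and 0 an E box. SDC1 had more than 1 window, and the other 4 members, DCN, LUM, AGRN and SDC2, had no window in the sequences used. The median share of G and C over all windows was 58.0%. These are letter matches and not binding sites.

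Perlecan, the large heparan sulfate proteoglycan of basement membranes, lies at chr1:21822245-21937297 on the minus strand. HSPG2 was at 5.44 RPKM (4.88 to 6.04) in the parent, 10.5 RPKM (9.75 to 11.3) in subclone 1 and 13.0 RPKM (12.2 to 13.9) in subclone 2. The 3 intervals were separate and followed the order parent, subclone 1, subclone 2. The fold was 1.93 (1.70 to 2.21) in subclone 1 and 2.40 (2.11 to 2.72) in subclone 2, and subclone 2 was 1.24-fold (1.12 to 1.37) above subclone 1. Of the 6 RefSeq genes nearest to HSPG2 only USP48 was listed, which encodes a ubiquitin-specific protease and had log2 ratios of -0.22 and -0.35.

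The HSPG2 window, chr1:21937311-21937560 on the minus strand, was 82.8% G and C and held 8 GC boxes and no TATA box.
HSPG2: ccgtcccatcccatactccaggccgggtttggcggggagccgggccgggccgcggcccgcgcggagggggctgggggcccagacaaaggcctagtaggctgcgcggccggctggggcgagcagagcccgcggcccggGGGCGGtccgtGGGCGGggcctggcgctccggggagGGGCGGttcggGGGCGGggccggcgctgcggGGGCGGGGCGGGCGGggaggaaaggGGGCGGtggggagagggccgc

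Agrin, best known for clustering acetylcholine receptors at the neuromuscular junction, was the more abundant of the basement membrane members. AGRN was at 23.4 RPKM (21.8 to 25.2) in the parent, 28.0 RPKM (26.2 to 29.8) in subclone 1 and 30.7 RPKM (28.8 to 32.6) in subclone 2. Its folds over the parent, 1.19 (1.08 to 1.32) and 1.31 (1.19 to 1.44), were above 1 by counting error but small beside those of HSPG2.

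The syndecans SDC1 and SDC4 had the highest levels of the 10 genes. SDC1, the main syndecan of epithelia, was at 38.5 RPKM (35.4 to 41.8) in the parent, 53.0 RPKM (49.4 to 56.8) in subclone 1 and 47.8 RPKM (44.4 to 51.3) in subclone 2, a fold of 1.38 (1.23 to 1.53) and 1.24 (1.11 to 1.39). SDC4, a syndecan of focal adhesions, was at 30.2 RPKM (27.2 to 33.6), 38.4 RPKM (35.0 to 42.1) and 52.7 RPKM (48.7 to 56.9), a fold of 1.27 (1.10 to 1.46) and 1.74 (1.53 to 1.99). In subclone 1 the fold intervals of SDC1 and SDC4 overlapped, and in subclone 2 that of SDC4 lay above that of SDC1. From subclone 1 to subclone 2, the ratio was 0.902 (0.815 to 0.998) for SDC1 and 1.37 (1.22 to 1.55) for SDC4. SDC2, a syndecan typical of mesenchymal cells, had 0 reads in the parent and 1 read in each subclone. A limit of 3 reads allows up to 0.192 RPKM in the parent, and the upper end of the exact interval used for the other levels is 0.236 RPKM, so no difference was detectable.

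The SDC4 window, chr20:45348425-45348674 on the minus strand, was 73.6% G and C and held 8 GC boxes and a TATA box 31 to 27 bases before the start.
SDC4: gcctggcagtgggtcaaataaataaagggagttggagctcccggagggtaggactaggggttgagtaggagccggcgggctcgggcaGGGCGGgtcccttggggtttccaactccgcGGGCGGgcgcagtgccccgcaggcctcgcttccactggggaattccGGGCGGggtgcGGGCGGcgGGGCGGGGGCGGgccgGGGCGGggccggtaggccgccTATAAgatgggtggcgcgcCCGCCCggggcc

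**Figure D2:**
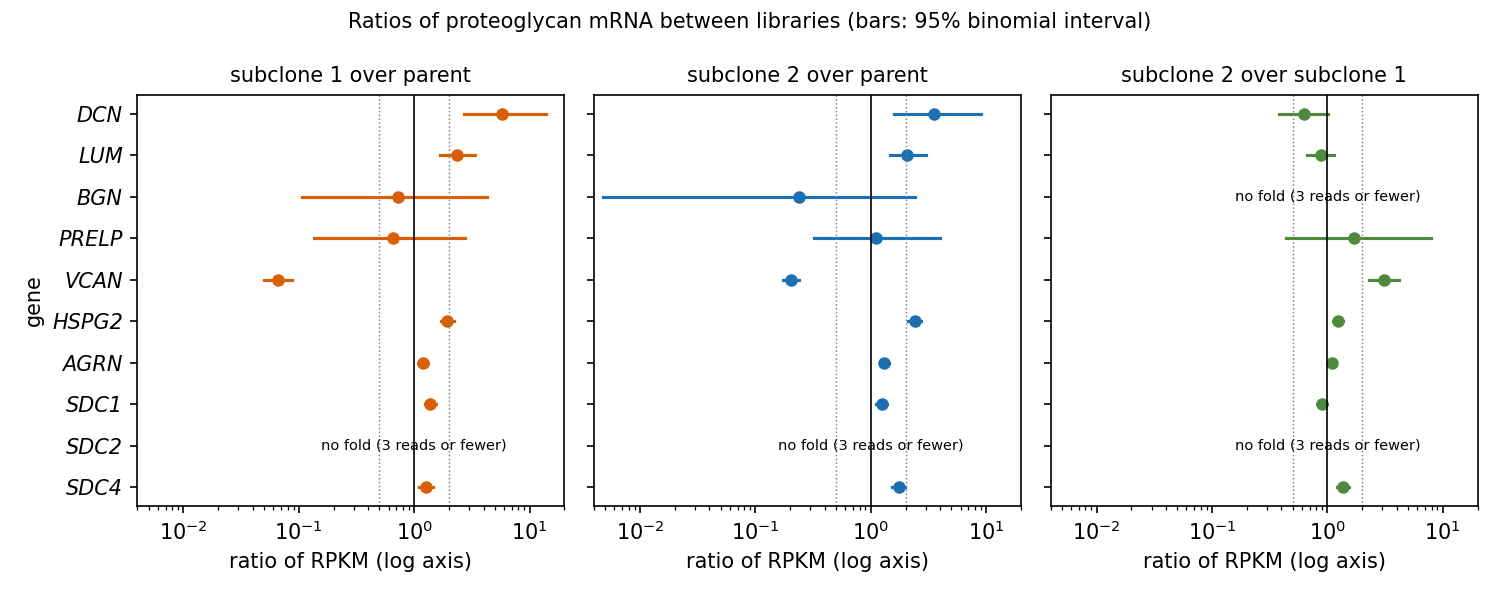
Ratio of each proteoglycan gene's RPKM between libraries, on a log axis, with exact 95% intervals that cover counting error only and dotted lines at a 2-fold difference. VCAN lies furthest below 1 in both subclones (0.0667 and 0.205), and DCN furthest above (5.72 and 3.56).

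The order of the levels within a library changed mainly through VCAN. In the parent the order was SDC1, SDC4, AGRN, VCAN, LUM, HSPG2 and then DCN, with the intervals of DCN, BGN, PRELP and SDC2 overlapping from each to the next. In subclone 1 VCAN moved from place 4 to place 7, below DCN, and the intervals of AGRN and LUM overlapped. In subclone 2 VCAN stood at place 6 with an interval that overlapped that of DCN, and those of SDC4 and SDC1 overlapped at the top. RPKM divides by length, so these levels are comparable between genes as far as the length used is right.

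The 2-fold calls were set beside 11370 genes whose RPKM averaged 1 or more over the libraries, which 7 of the 10 members reached, all but BGN, PRELP and SDC2. In subclone 1, DCN and LUM were at least 2-fold above the parent and VCAN was at least 2-fold below, where 4.90% of all genes were higher and 1.82% lower. In subclone 2, DCN, LUM and HSPG2 were higher and VCAN lower, against 5.33% and 2.16% of all genes. Between subclone 2 and subclone 1 only VCAN was past 2-fold, where 1.42% of genes were higher and 1.39% lower. Since the members were chosen from these same libraries, nothing is read from these shares.

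The 95% intervals excluded 1 for many more genes, because they hold counting error alone. In each subclone all 7 members had an interval against the parent that excluded 1, above it for 6 and below it for VCAN, where 39.0% of the 11111 genes with whole reads did so in subclone 1 and 40.8% in subclone 2. For subclone 2 over subclone 1 the intervals of 5 members excluded 1, with VCAN, HSPG2, SDC4 and AGRN above and SDC1 below, against 20.1% of genes, and those of DCN and LUM held 1. The interval of AGRN began at 1.003 and that of SDC1 ended at 0.998, so these are the weakest of the 5. The members were chosen with these values known, so nothing is read from these counts and shares either.

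Against all genes, 91 had a larger log2 ratio than DCN in subclone 1 and 212 in subclone 2, and for LUM these were 379 and 563 genes. Only 17 genes had a lower ratio than VCAN in subclone 1 and 47 in subclone 2. These ranks describe members chosen with the same values known and test nothing. Over the 9 members with reads in both libraries, the median log2 ratio was 0.34 in subclone 1 and 0.39 in subclone 2. These 9 include BGN and PRELP, which lie under a mean of 1 RPKM. Over the 11370 genes that reach this mean the median was 0.00 and 0.04, so the sets are unlike. Among the 7 members that reach it, the middle ratio was 0.46 in subclone 1 (SDC1) and 0.80 in subclone 2 (SDC4). Of all 2-fold calls, 72.9% were higher in subclone 1 and 50.5% were higher in subclone 2 than in subclone 1. Dividing by ACTB made these shares 57.8% and 63.9%. Dividing by GAPDH made the second 62.6%, while centring on the median made it 45.2% and dividing by the upper quartile 44.0%. No member with a mean RPKM of at least 1 changed its direction against the parent under any scaling tried.

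**Figure D3:**
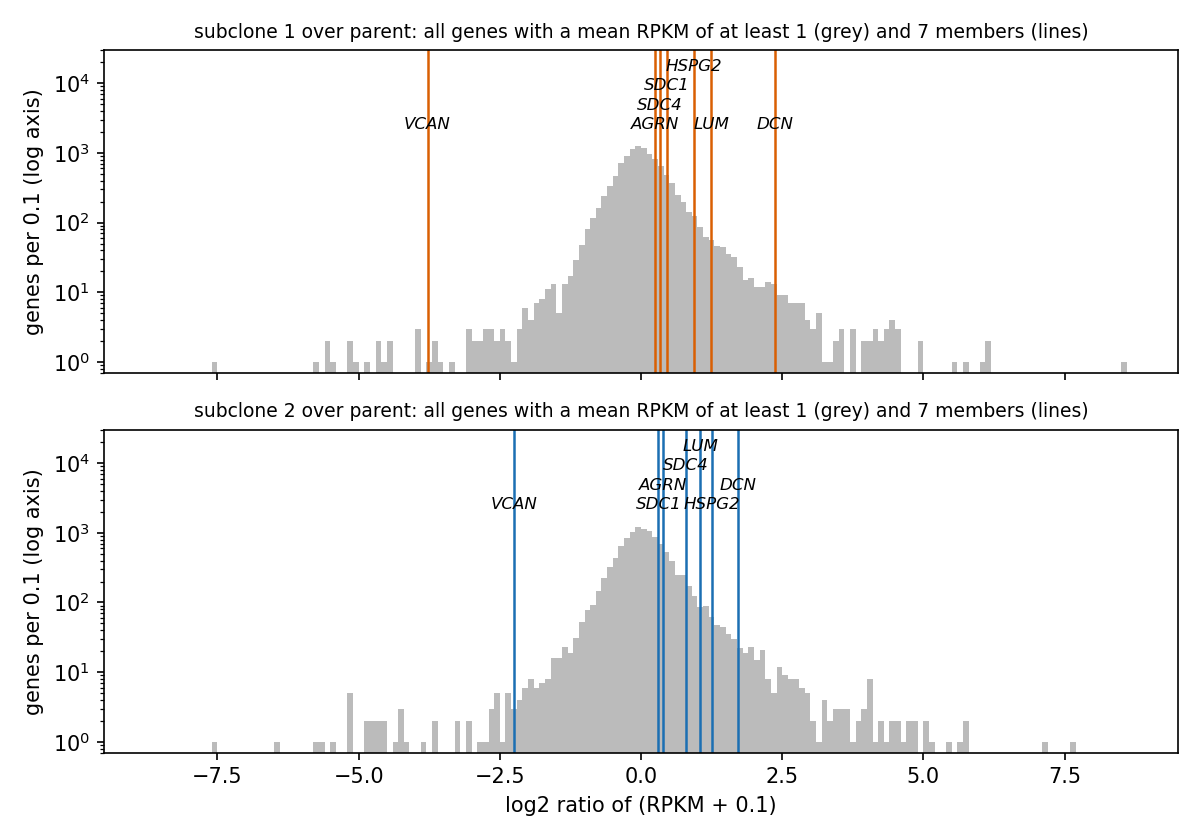
Log2 ratios of (RPKM + 0.1) of each subclone over the parent for all 11370 genes averaging 1 RPKM or more (grey, genes per bin on a log axis) and the 7 members among them (lines). VCAN lies at -3.78 and -2.25, DCN at 2.37 and 1.71, and the other members between 0.25 and 1.25.

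Other proteoglycan genes were taken as lists. Of all genes, 4.90% were at least 2-fold higher and 1.82% lower in subclone 1, and 5.33% and 2.16% in subclone 2. The medians over all genes were 0.00 and 0.04. Since the lists were chosen with these data known, nothing is read from their counts. Of 26 further secreted proteoglycans 11 were listed and 4 had a mean RPKM of at least 1, and fibromodulin, keratocan, osteomodulin, asporin, epiphycan and aggrecan were at 0. None of the 4 was 2-fold higher in either subclone, and 1 was 2-fold lower in subclone 2, SRGN, the proteoglycan of secretory granules, at 40.2, 26.7 and 11.3 RPKM. COL18A1, a basement membrane collagen that carries heparan sulfate, had the highest ratios, at 15.0, 22.9 and 16.1 RPKM. Of 16 further cell surface proteoglycans 9 reached a mean RPKM of 1, with 2 higher in subclone 1 and 1 lower in subclone 2. The median log2 ratios in subclone 1 and subclone 2 were 0.03 and -0.29 for the secreted and 0.16 and -0.06 for the surface proteoglycans. Those higher were the thrombin receptor THBD at 1.49, 4.13 and 2.93 RPKM and the glypican GPC6 at 3.60, 9.39 and 6.16 RPKM, and the lower one was the glypican GPC1 at 78.5, 49.0 and 29.7 RPKM. In the parent GPC1 stood above SDC1, the highest of the 10 members, and in subclone 2 it stood below both SDC1 and SDC4.

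Enzymes that build the sugar chains were taken as 3 lists. Of 14 linker and precursor genes that reached this level, 0 were past 2-fold in either subclone, with medians of -0.06 and 0.08. XYLT2, a xylosyltransferase that starts the chains, had the highest ratios, at 4.43, 6.81 and 7.77 RPKM, and the lowest were those of B3GALT6 at 6.78, 4.74 and 6.67 RPKM in subclone 1 and FAM20B at 29.2, 25.4 and 25.1 RPKM in subclone 2. Of 13 genes for chondroitin, dermatan and keratan sulfate chains 0 were past 2-fold, with medians of 0.25 and 0.21, and the sulfotransferase CHST12 at 3.83, 6.94 and 7.58 RPKM came nearest. The lowest ratios there were those of 2 other sulfotransferases, CHST3 at 2.01, 1.40 and 1.52 RPKM in subclone 1 and CHST11 at 6.99, 6.88 and 4.29 RPKM in subclone 2. Of 11 heparan sulfate genes 1 was lower in subclone 1, against 1.82% of all genes. In subclone 2, 1 was higher and 1 lower, against 5.33% and 2.16% of all genes, and the medians were -0.09 and 0.11. SULF2, a sulfatase that trims heparan sulfate outside the cell, was at 3.36, 0.306 and 0.498 RPKM from 32, 3 and 5 reads, and HS3ST1, a 3-O-sulfotransferase, was at 5.33, 4.97 and 11.95 RPKM. EXT2, a polymerase of the chains, had the highest ratio in subclone 1, at 32.7, 40.2 and 39.0 RPKM.

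Of 20 genes for the breakdown of proteoglycans, 3 were higher and 1 lower in subclone 1, against 4.90% and 1.82% of all genes. In subclone 2, 1 was higher and 1 lower, against 5.33% and 2.16% of all genes, and the medians were 0.42 and 0.28. The matrix metalloprotease MMP14 was at 8.08, 17.9 and 15.8 RPKM, the lysosomal beta-glucuronidase GUSB at 18.4, 37.4 and 34.3 RPKM and the iduronidase IDUA at 0.506, 1.18 and 1.44 RPKM, from 5, 12 and 15 reads. The serine protease HTRA1, which cleaves decorin, was at 3.33, 1.22 and 0.0990 RPKM, or 32, 12 and 1 reads.

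Of 22 binding partners, 1 was higher in subclone 1, against 4.90% of all genes. In subclone 2, 1 was higher and 2 lower, against 5.33% and 2.16% of all genes, and the medians were 0.16 and 0.28. The laminin chain LAMB1, a basement membrane partner of perlecan and agrin, was at 34.5, 86.9 and 78.6 RPKM. The fibrillar collagen COL3A1 was at 4.42, 2.21 and 0.463 RPKM, and COL6A3, a chain of the microfibrillar collagen that decorin binds, was at 13.0, 6.67 and 4.45 RPKM. The other chains of that collagen went the other way, with COL6A1 at 103.5, 162.7 and 132.2 RPKM and COL6A2 at 64.4, 109.3 and 92.7 RPKM. COL3A1 and COL6A3 were highest in the parent, while COL6A1 and COL6A2 were lowest there, as were DCN and LUM.

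**Figure D4:**
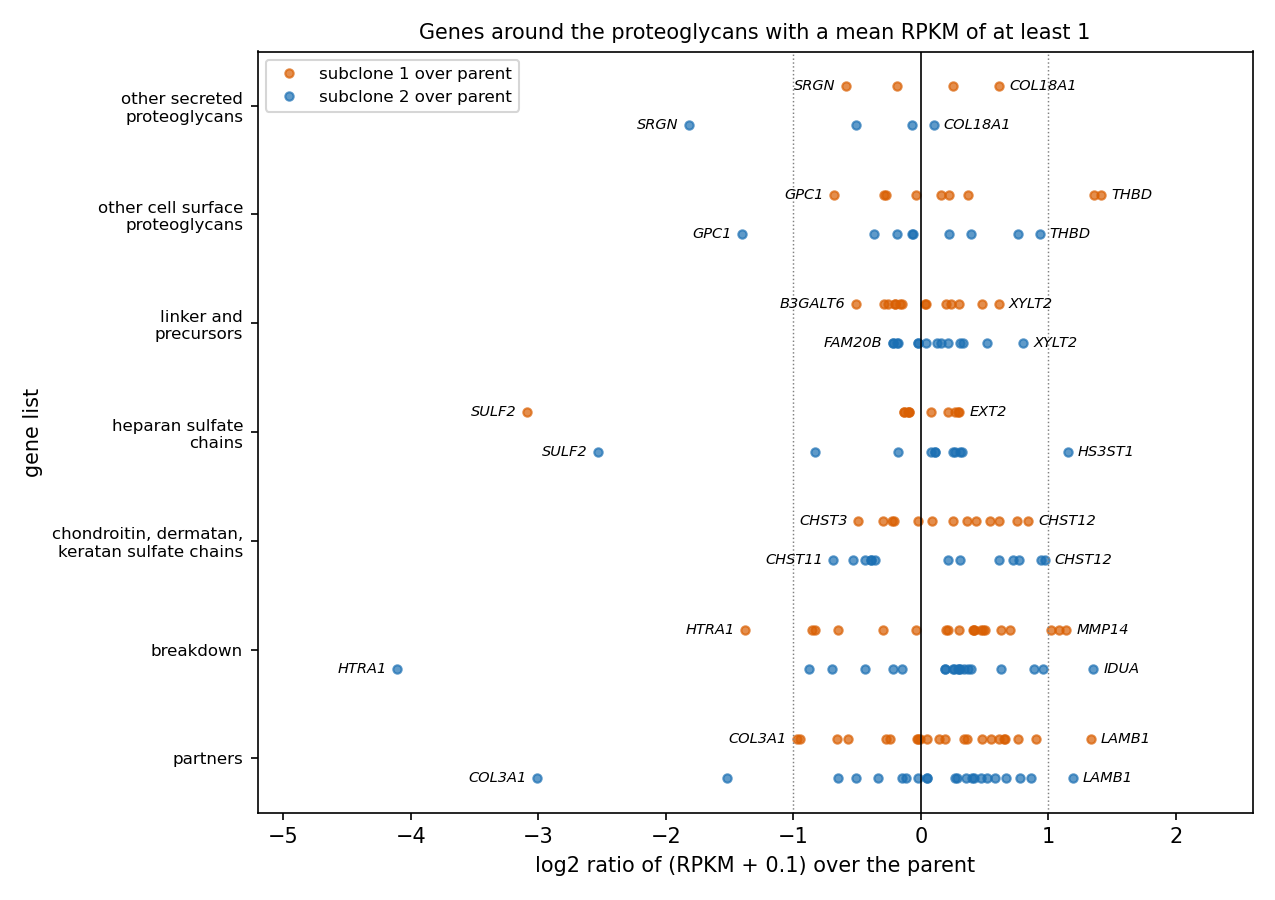
Log2 ratios of (RPKM + 0.1) of each subclone over the parent for genes of 7 proteoglycan lists with a mean RPKM of at least 1, with the lowest and highest gene of each named. Dotted lines mark a 2-fold difference, which HTRA1, COL3A1 and SULF2 pass furthest on the lower side.

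Markers of the cells that make decorin and lumican in liver were low or at 0 in these cultures, with exceptions. Of 12 fibroblast and stellate cell markers, 7 were listed, 2 reached a mean RPKM of 1, and their summed level was 9.23, 8.91 and 6.51 RPKM. Those that reached it were FBN1, fibrillin, at 4.10, 5.06 and 4.40 RPKM, and COL3A1, whose values are given above. The defining markers PDGFRA, PDGFRB, FAP, POSTN and DES were at 0 in all 3 libraries, and COL1A1 held 9, 11 and 1 reads. LRAT, the stellate cell enzyme of retinyl ester storage, held 4, 24 and 33 reads, so within this list LRAT was higher in both subclones and COL3A1 lower.

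The hepatocyte list had a summed level of 2603, 2841 and 2912 RPKM. Nearly all of it was the epithelial keratins KRT8, given above, and KRT18 at 953, 1075 and 1048 RPKM. Within the list ALB, albumin, was at 2.46, 49.5 and 68.8 RPKM and TF, transferrin, at 5.71, 30.3 and 5.88 RPKM, while APOA1 and TTR were near 0. Of 7 endothelial markers 5 were listed, summed at 5.11, 11.9 and 7.61 RPKM, with CLDN5 and ERG at 0. PECAM1 was at 3.33, 9.81 and 4.46 RPKM and KDR at 1.36, 1.94 and 3.08 RPKM. The other listed ones were low, with TEK on 8, 2 and 1 reads, VWF on 2, 1 and 1 reads and CDH5 on 0, 1 and 0 reads. Of 7 blood markers 5 were listed, summed at 76.6, 113 and 101 RPKM, nearly all of it the lysosomal protein CD68 at 75.3, 112 and 99.6 RPKM, with LYZ at 1.03, 1.00 and 1.40 RPKM and CSF1R and CD3E at 0. The part of these markers in the levels of the 10 genes was not tested, and in bulk RNA more cells of a type and more RNA per cell cannot be told apart.

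Among genes whose RPKM averaged 1 or more, those most like DCN and LUM were found by the distance between their log2 ratios of both subclones over the parent and those of the member, over 3 libraries. For DCN these were SLC2A9, a urate transporter, at 0.355, 2.30 and 1.46 RPKM, ANPEP, the surface peptidase aminopeptidase N, at 16.5, 85.6 and 50.6 RPKM, and CABP4, a calcium-binding protein, at 0.276, 2.04 and 1.21 RPKM. SLC2A9 rests on 3, 20 and 13 reads, and whole reads were not recovered for CABP4. DCN itself held 8 reads in the parent, so counting error limits this ranking. For LUM they were CRIP2, a LIM domain protein, at 10.3, 24.6 and 21.4 RPKM, CPVL, a carboxypeptidase-like protein, at 16.2, 37.1 and 33.1 RPKM, and the transcription factor FOXO4 at 1.39, 3.48 and 2.89 RPKM. Likeness over 2 ratios is a description of these 3 libraries.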

How the data were processed

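The authors deposited 1 RPKM value a gene for each of 3 libraries, made from total RNA of cells in culture with the Illumina TruSeq RNA kit, and the processing notes name hg19. The aligner, counter, annotation and handling of strand and shared reads are not given in the sources used here. Genes above 0 were listed (14703, 14900 and 14931 a library), and others were taken as 0 in that library. Coordinates and transcript lengths are from GENCODE 29 and promoters from RefSeq, both on GRCh38, and are not the models behind the RPKM. The transcript lengths also bounded the length behind each read count. The smallest length giving whole reads was taken where it lay between 0.5 times the median and 1.5 times the longest transcript. For DCN it was 2305 bases, against 7156 for the longest transcript, so reads of genes other than LUM may also be a multiple of those given.

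RPKM is reads divided by length and library total, so the ratios of library totals were taken from 653 and 625 genes whose reads matched between parent and subclone, and totals from a common step of 1956 low genes, 85.8% of which fell on it. Whole reads were found for 97.7% of 11370 genes whose RPKM averaged 1 or more. Levels have exact Poisson intervals and folds have exact binomial (Clopper-Pearson) intervals, at 95%. Ratios were log2 of (RPKM + 0.1), and calls were at least 2-fold. The recovery of totals and reads was tried on simulated reads in which each gene had the length of its longest transcript. Coverage of the fold intervals was checked there with the simulated reads. It was not checked with recovered reads, or with shorter lengths such as those found for DCN and LUM. Groups of 1 library allow no test, and no p-value was computed.

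The members and gene lists were chosen with earlier results of these data known. From each list the gene with the highest and the lowest ratio in each subclone was named, among those averaging 1 RPKM or more with at least 20 reads in all. Genes named for another reason were chosen after their values were seen. These were GPC6, GUSB, the COL6 chains, FN1, LRAT, COL1A1, KRT8, KRT18, APOA1, APOB, FGB, AFP, TTR, TEK, VWF and CDH5. Alternatives changed the pseudocount, scaling, filter, fold and interval level, and the LUM length was added after seeing the data. Python 3.11.15, numpy 2.4.6, pandas 2.3.3, scipy 1.17.1 and matplotlib 3.10.9 were used.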

Additional observations from a re-analysis of the deposited data

Results flagged for a closer look

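Of 107 list genes averaging 1 RPKM or more, the subclones lay on opposite sides of the parent for 17, and both fold intervals excluded 1 for 1 of them, FN1. The same share was not counted over all genes, so nothing is read from this count. The members and genes named in the text with ratios of opposite sign are given here, and their differences between subclones were not tested. Among them the scaling gene GAPDH had log2 ratios over the parent of 0.05 in subclone 1 and -0.06 in subclone 2. PRELP had log2 ratios over the parent of -0.40 in subclone 1 and 0.10 in subclone 2, so subclone 2 was 0.51 above subclone 1, on 6, 4 and 7 reads. HS3ST1, a heparan sulfate 3-O-sulfotransferase, had -0.10 and 1.15, a difference of 1.25, on 47, 45 and 111 reads, and its fold interval of subclone 2 over the parent was 1.58 to 3.23. LYZ, lysozyme, had -0.03 and 0.41, a difference of 0.44, on 7, 7 and 10 reads. COL1A1, a chain of type I collagen, had 0.20 and -1.69, a difference of -1.89, on 9, 11 and 1 reads. FN1, fibronectin, a matrix protein that binds heparan sulfate chains, was at 1625, 1786 and 1034 RPKM, with 0.14 and -0.65, a difference of -0.79.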

How the results depend on the processing

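No paired analysis was possible because every line was sequenced as a single library, and none could be left out. No member's ratio whose counting interval excluded 1 changed direction. Of the log2 ratios of the 7 members with a mean RPKM of at least 1, 144 of 147 stayed within their counting interval under the alternatives. The exceptions were VCAN with 1 RPKM added, at -3.02, -1.98 and 1.04 for subclone 1 and subclone 2 over the parent and subclone 2 over subclone 1. BGN and PRELP stayed within theirs where they had one, and SDC2, with at most 1 read, had none and ranged from 0.09 to 2.85 in subclone 1 and from -0.05 to 0.03 between the subclones. Over the alternatives the ratio over the parent lay between 1.61 and 2.50 (subclone 1) or 1.08 and 1.82 (subclone 2) for DCN, and between 1.11 and 1.25 or 0.99 and 1.11 for LUM. LUM fell under 2-fold in subclone 2 with 1 RPKM added.

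Among the members, no filter added BGN to those lower in subclone 2 (2 in place of 1), a filter at a mean of 5 RPKM left 1 higher in subclone 1 (without DCN), a 1.5-fold rule gave 1 lower in subclone 2 than in subclone 1 (DCN), and 99% intervals gave 0 below 1 there (without SDC1). In the same order of comparisons, counts of higher against lower genes over the whole table were 347 against 117, 380 against 150 and 80 against 77 with 1 RPKM added. The balance of subclone 2 over subclone 1 turned to 142 against 181 with the upper quartile and 147 against 178 with median centring. Dropping the filter gave 1523 against 884, 1553 against 941 and 842 against 902. A filter at 5 RPKM gave 233 against 71, 253 against 93 and 43 against 46. A 1.5-fold rule gave 1317 against 848, 1444 against 830 and 540 against 467, and division by ACTB gave 328 lower in subclone 1. Depth limits BGN, PRELP and SDC2, at 7 reads or fewer.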
